A study of Sorghum bicolor with 24 samples.

Results

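Strigolactone perception was examined in roots of sorghum (Sorghum bicolor) through 3 genes, given without the version from here on. These were the F-box gene MAX2 (Sobic.010G043000.v3.2) and 2 genes described as the strigolactone esterase D14, Sobic.001G465100.v3.2 and Sobic.009G254700.v3.2. They were taken by their identifiers, as 3 of the 35907 genes listed for the phosphorus experiment and of the 35842 listed for the GR245DS experiment. The deposited descriptions call 5 genes a strigolactone esterase D14 and 1 further gene a D14L esterase, and these names rest on similarity to known proteins. Whether each of them acts as a receptor was not tested. Of the genes described as D14, Sobic.001G465100 was the most abundant in each of the 8 groups.

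Strigolactones are carotenoid-derived hormones that restrain shoot branching, shape root growth and, when released into the soil, attract mycorrhizal fungi and trigger the germination of parasitic weeds. In rice and Arabidopsis, D14 is an alpha/beta hydrolase that binds and cleaves the hormone and then docks to the F-box protein MAX2 (called D3 in rice), the substrate adaptor of an SCF ubiquitin ligase. This complex marks the repressors D53 and its SMXL relatives for destruction. D14L (KAI2) is the related receptor for karrikins, and it signals through the same F-box protein.

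The study holds 24 libraries in 8 groups of 3, all from roots. In the first experiment, roots under phosphorus deficiency or mock were taken at 4 and 7 days. In the other, roots treated with GR245DS, a synthetic analogue of strigolactones, or mock were taken at 3 h and 6 h. The sources used here do not give the cultivar, the plants' age, the phosphate supply, the dose of GR245DS or whether the replicates are separate plants, so p-values measure the spread between these libraries.

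Libraries held 32631226 to 45292506 counts in the phosphorus experiment and 31677623 to 38706195 in the GR245DS experiment. Levels within a gene are given as CPM, counts scaled to library size, and levels between genes as the deposited FPKM, which is per length. The test was edgeR's quasi-likelihood test with an adjusted p of 0.05 as threshold, and "rose", "fell", "higher" and "lower" of a tested difference mean past it. The experiments were normalized separately and are not tested against each other. Bulk RNA cannot separate fewer cells of a type from less RNA per cell. All 4 Casparian strip membrane protein genes, markers of the root endodermis, were detected in all libraries, summing to 54.4 to 155 CPM in the phosphorus experiment and 3.94 to 31.3 CPM in the GR245DS experiment. The Rubisco small subunit gene Sobic.005G042000, a marker of green tissue named here after its values were seen, had 0 counts in 11 of 12 libraries of the phosphorus experiment and 33.9 to 222 CPM in the GR245DS experiment. Other green tissue genes were mixed. Sobic.001G177000 had 0 counts in all 12 libraries of the phosphorus experiment. Sobic.001G326900 was at 10.7 to 124 CPM there and at 18.0 to 100 CPM in the GR245DS experiment, and Sobic.009G132900 at 4.14 to 190 and 48.8 to 140 CPM.

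Features of the libraries bear on every direction below. Genes that phosphate shortage usually induces went against the labels of the phosphorus experiment. The 9 SPX domain genes summed to 97.0 to 110 CPM under labelled P deficiency and to 2648 to 3561 CPM in libraries labelled mock, and 13 phosphate transporter 1 genes summed to 179 to 320 against 2400 to 4035 CPM. Directions are given by the deposited labels, and an exchange of the labels would turn each of them round. In the GR245DS experiment, replicate 3 stood apart in all 4 groups, with values given beside the results, and libraries of the same number varied together.

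The abundant D14 gene, Sobic.001G465100, was about 3 times as abundant in the libraries labelled P deficiency as in mock at both days. At day 4 it was at 146, 128 and 138 CPM in mock replicates 1, 2 and 3, and at 449, 358 and 418 CPM under labelled P deficiency. At day 7 the mock libraries held 185, 113 and 107 CPM, and those labelled P deficiency held 469, 460 and 381 CPM. The groups did not overlap at either day, and mock replicate 1 of day 7 was the highest mock library. The log2 fold change was 1.57 at day 4 (SE 0.19, n = 3 per group, edgeR adjusted p = 3.36e-05) and 1.69 at day 7 (SE 0.19, edgeR adjusted p = 1.69e-05).

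MAX2 (Sobic.010G043000) rose by nearly the same factor. At day 4 the mock libraries held 62.4, 62.1 and 59.7 CPM, and under labelled P deficiency they held 198, 190 and 171 CPM. At day 7 mock was at 91.7, 66.3 and 61.2 CPM against 193, 193 and 217 CPM. Again no libraries overlapped, and mock replicate 1 of day 7 was the highest of mock, as it was for Sobic.001G465100. The log2 fold change was 1.60 at day 4 (SE 0.14, edgeR adjusted p = 2.27e-06) and 1.46 at day 7 (SE 0.14, edgeR adjusted p = 4.42e-06).

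The weakly expressed D14 gene, Sobic.009G254700, went the other way, from a low level in mock to almost no reads. At day 4 it had 81, 76 and 123 counts in mock, or 2.48, 2.28 and 3.2 CPM, and 0, 5 and 0 counts under labelled P deficiency. At day 7 it had 217, 177 and 161 counts in mock, or 5.30, 3.95 and 4.96 CPM, and 0, 0 and 2 counts under labelled P deficiency. The groups were apart at both days, and all reads under labelled P deficiency came from 1 library each day. The summed counts put mock 64.2-fold above labelled P deficiency at day 4 (95% counting interval 27.2 to 199) and 241-fold at day 7 (66.5 to 1997), for counting error only. The fitted log2 fold changes were -5.90 (SE 0.66, edgeR adjusted p = 1.67e-05) and -7.70 (SE 0.74, edgeR adjusted p = 4.04e-06). They became -9.62 without replicate 2 of day 4 and -10.46 without replicate 3 of day 7 labelled P deficiency, where the libraries left held no reads of the gene.

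All 3 genes passed the threshold at both days, in an experiment where 38.6% of the 25137 genes tested did so at day 4 and 35.6% at day 7. A call was therefore common, while the tested genes as a whole were centred near 0, with a median log2 fold change of 0.02 at day 4 and -0.02 at day 7. How many of all genes had groups that did not overlap was not counted. In the authors' deposited table, the log2 fold changes for day 4 and day 7 were -1.55 and -1.70 for Sobic.001G465100. In the authors' deposited table they were -1.58 and -1.47 for MAX2 and 6.03 and 7.92 for Sobic.009G254700. The column names there put P deficiency before mock, while those of the GR245DS experiment put mock before GR245DS. Read as the group named later over the one named earlier, both match the counts of the 3 genes in direction, and the reading was chosen for that match. The P values would then be mock over labelled P deficiency, with sizes close to the fitted ones. Read instead as P deficiency over mock, their signs would be opposite to the labelled counts. This bears on the doubt about the labels given above, which was not settled.

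**Figure D1:**
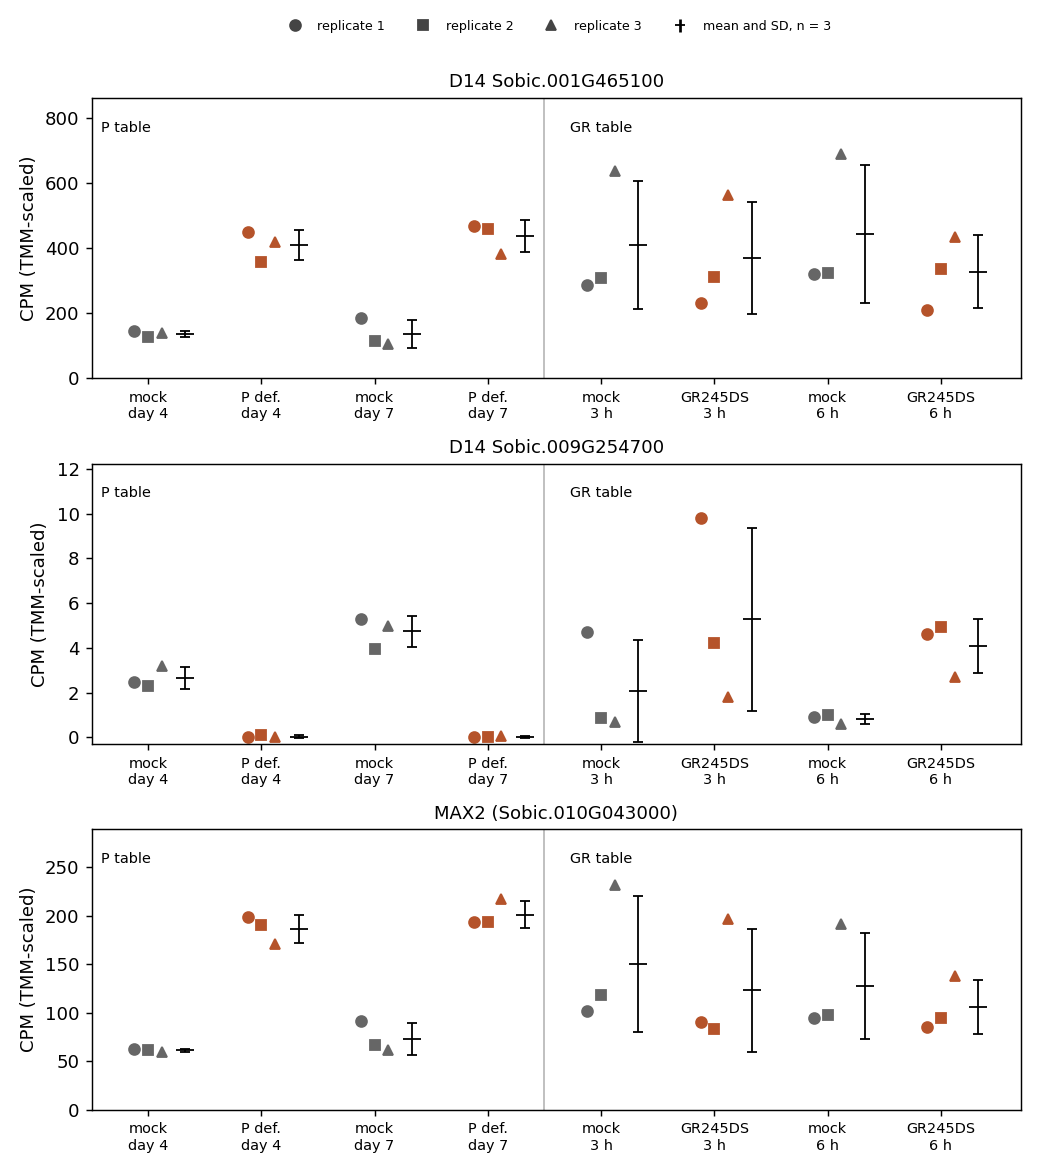
CPM of the 3 genes in every library, with 1 panel per gene and the 8 groups on the x axis; point shapes give the replicate number, grey is mock, brown is treated, and the bar is the mean with its SD (n = 3). In the phosphorus experiment the treated and mock points are apart in all panels, while in the GR245DS experiment the triangles of replicate 3 lie highest in each group for Sobic.001G465100 and MAX2 and lowest for Sobic.009G254700.

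None of the 3 responses differed detectably between the days. The change of the response from day 4 to day 7 was 0.12 on the log2 scale for Sobic.001G465100 (95% interval -0.45 to 0.69, edgeR adjusted p = 0.973) and -0.14 for MAX2 (-0.57 to 0.28, edgeR adjusted p = 0.938). For Sobic.009G254700 it was -1.80 (-4.78 to 1.19, edgeR adjusted p = 0.836), an interval that leaves sizeable differences possible. Of all genes, 0.465% passed this test.

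No comparison of the days within a treatment gave a call. In mock, from day 4 to day 7, the log2 difference was -0.03 for Sobic.001G465100, 0.25 for MAX2 (edgeR adjusted p = 0.555) and 0.83 for Sobic.009G254700 (edgeR adjusted p = 0.497), and none passed, against 1.34% of all genes. The mock libraries of Sobic.009G254700 did not overlap between the days, with 2.28 to 3.2 CPM at day 4 and 3.95 to 5.30 CPM at day 7. How often this held over all genes was not counted. Under labelled P deficiency, the day 7 to day 4 differences were 0.10 for Sobic.001G465100 and 0.11 for MAX2, and none of the 3 genes passed, against 4.39% of all genes. For both abundant genes, then, the group means fell into a low pair and a high pair, and neighbours within a pair did not differ past the threshold. MAX2 was at 61.4 ± 1.48 and 73.1 ± 16.3 CPM in mock and at 186 ± 14.1 and 201 ± 14 CPM under labelled P deficiency (SD, n = 3), at days 4 and 7.

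By the deposited FPKM, MAX2 and the abundant D14 gene were at similar levels in the roots. This rests on the lengths behind the FPKM, which were not checked. In day 4 mock, CPM put Sobic.001G465100 at 137 ± 9.01 and MAX2 at 61.4 ± 1.48. In the phosphorus experiment, Sobic.001G465100 was at 21.0 ± 0.975 FPKM in day 4 mock and 65.0 ± 6.94 FPKM under labelled P deficiency, and MAX2 at 18.1 ± 0.438 and 57.2 ± 3.96 FPKM. Within a library, the FPKM ratio of this D14 gene to MAX2 ran from 0.888 to 1.27, with a median of 1.12. In the GR245DS experiment the ratio ran from 1.28 to 1.95, with a median of 1.57, so by FPKM the receptor gene exceeded the F-box gene in every library there. The experiments were normalized apart, although a ratio within a library does not depend on its scaling.

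No shift of the ratio between receptor and F-box gene was detectable under treatment. The log2 ratio of MAX2 to Sobic.001G465100 in CPM was -1.13 ± 0.193 under labelled P deficiency and -1.16 ± 0.101 in mock at day 4 (SD, n = 3, two-sided exact permutation p = 0.8). At day 7 it was -1.11 ± 0.264 against -0.86 ± 0.130 (exact p = 0.2), and over both days the difference was -0.11 (6 against 6 libraries, exact p = 0.372). With 3 against 3 libraries the smallest possible p is 0.1, so a single day could not have passed. For GR245DS the ratio differed from mock by -0.15 at 3 h (exact p = 0.5), 0.18 at 6 h (exact p = 0.4) and 0.01 over both times (6 against 6, exact p = 0.900), with a smallest possible p of 0.00216 for 6 against 6. Neither comparison of 6 against 6 passed even before adjustment, and those of 3 against 3 could not have passed. The permutations over both times ignored time and replicate number. The ratio in mock was itself at -1.44 at 3 h and -1.78 at 6 h, which adds to the spread.

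Marker sums of other tissues moved with the labels in the phosphorus experiment. The 30 genes of xylem and secondary wall, 4 of them at 0 throughout, summed to 605 to 894 CPM in libraries labelled P deficiency and 2513 to 2979 CPM in mock, and the 6 phloem genes to 154 to 190 against 257 to 290 CPM. The 17 sorgoleone genes, which mark root hairs and of which 4 were at 0, summed to 201 to 278 against 531 to 911 CPM. The 22 green tissue genes, with 2 at 0, ranged from 457 to 1039 CPM under labelled P deficiency and from 291 to 499 CPM in mock. The highest of them was a phosphoenolpyruvate carboxykinase gene (Sobic.001G432800, 157 to 912 CPM), an enzyme that roots use as well. Sobic.009G132900 (4.14 to 190 CPM) and Sobic.001G326900 (10.7 to 124 CPM) also added to the sum. The 4 root cap and root hair genes overlapped, with 258 to 281 against 249 to 267 CPM, as did the 20 genes of dividing cells, with 338 to 568 against 431 to 688 CPM. The part of these differences in the D14 and MAX2 values was not tested.

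Treatment with GR245DS gave no call for any of the 3 genes with 1 mean per group, where 1.01% of 24814 tested genes passed at 3 h and 0.484% at 6 h. Group means of the weak D14 gene, Sobic.009G254700, were above mock at both times, and those of MAX2 and Sobic.001G465100 were below mock at both times.

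For Sobic.009G254700, mock libraries at 3 h held 169, 33 and 25 counts (4.69, 0.862 and 0.666 CPM) and GR245DS libraries 337, 155 and 60 counts (9.79, 4.24 and 1.81 CPM). At 6 h mock held 31, 34 and 19 counts (0.902, 0.988 and 0.580 CPM) and GR245DS held 140, 164 and 92 counts (4.62, 4.93 and 2.70 CPM). The groups overlapped at 3 h, where mock replicate 1 lay above 2 of the 3 GR245DS libraries, and were apart at 6 h. The share of all genes with groups apart at 6 h was not counted. The log2 fold change was 1.35 at 3 h (95% interval -0.31 to 3.01, edgeR adjusted p = 0.748) and 2.30 at 6 h (0.56 to 4.05, edgeR adjusted p = 0.543). Leaving out 1 library at a time, the 3 h value ran from 0.55 to 2.77 and the 6 h value from 2.11 to 2.53, and none of these passed.

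Libraries of the same number deviated together in this experiment, so they were also compared in pairs, although the labels name no pairing. GR245DS over mock for Sobic.009G254700 was 2.08, 4.92 and 2.72 times in replicates 1, 2 and 3 at 3 h and 5.13, 4.99 and 4.66 times at 6 h. The gene was higher in 6 of 6 pairs, and the 6 h ratios lay close together although replicate 3 was the lowest library of both groups. How many of all genes lay to 1 side in 6 of 6 pairs was not counted. With the replicate number as a block, the 6 h change passed the threshold (log2 fold change 2.33, SE 0.49, edgeR adjusted p = 0.0386), in a fit where 2.05% of genes passed. The 3 h change did not pass (1.46, SE 0.46, edgeR adjusted p = 0.134), where 3.13% of genes passed. Without replicate 3 of all groups the blocked log2 fold change at 6 h was 2.36, which did not pass (edgeR adjusted p = 0.211), and without the block it was 2.33 (edgeR adjusted p = 0.420). DESeq2 without a block gave an adjusted p of 0.109 at 6 h, where 1.35% of genes passed. The authors' deposited table lists a log2 fold change of 1.50 and an FDR of 1.18e-05 at 6 h. For 3 h the authors' deposited table lists 0.45, with an FDR of 0.937.

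MAX2 (Sobic.010G043000) showed no change past the threshold after GR245DS. At 3 h it was at 101, 118 and 231 CPM in mock and at 90.3, 83.2 and 196 CPM after GR245DS. At 6 h mock was at 94.7, 97.5 and 191 CPM against 84.9, 94.8 and 138 CPM. GR245DS lay below mock of the same number in 6 of 6 pairs, at 0.704 to 0.972 times, and the groups overlapped at both times. Here too, the share of all genes with 6 of 6 pairs to 1 side was not counted. The log2 fold change was -0.29 at 3 h (95% interval -1.22 to 0.65, edgeR adjusted p = 0.940) and -0.27 at 6 h (-1.21 to 0.67, edgeR adjusted p = 1.0). With the block the intervals narrowed to -0.60 to -0.0024 (edgeR adjusted p = 0.293) and -0.51 to 0.08 (edgeR adjusted p = 0.563), and neither passed.

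For Sobic.001G465100, too, no change passed. At 3 h the mock libraries held 287, 307 and 635 CPM and the GR245DS libraries 232, 313 and 564 CPM. At 6 h mock was at 321, 323 and 689 CPM and GR245DS at 210, 337 and 435 CPM. The groups overlapped, and the ratio within a number ran from 0.632 to 1.04. The log2 fold change was -0.15 at 3 h (95% interval -1.15 to 0.85, edgeR adjusted p = 0.980) and -0.44 at 6 h (-1.44 to 0.56, edgeR adjusted p = 1.0). The blocked values were -0.15 (-0.50 to 0.19, edgeR adjusted p = 0.674) and -0.40 (-0.74 to -0.05, edgeR adjusted p = 0.292), and neither passed.

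**Figure D2:**
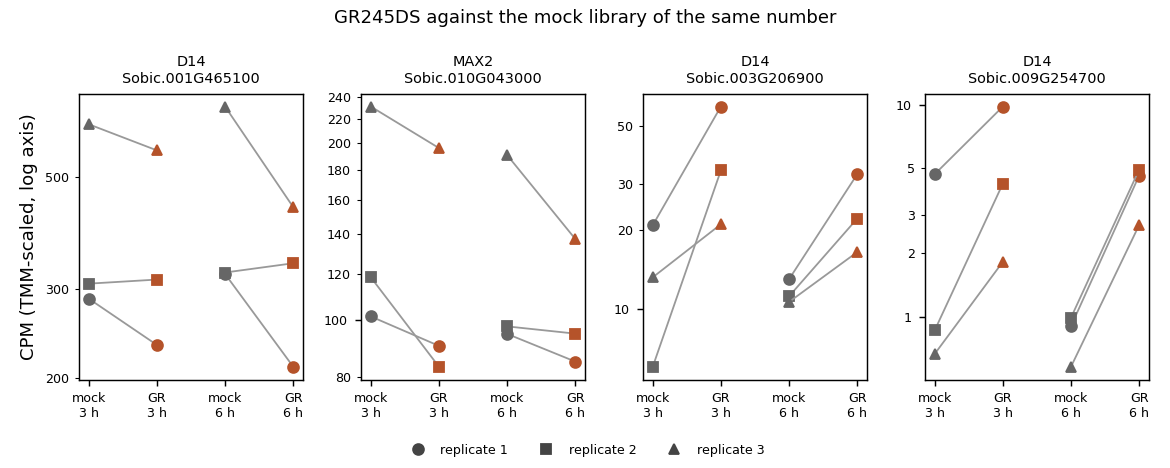
CPM on log axes of 4 genes in mock and GR245DS libraries at 3 h and 6 h, with lines joining libraries of the same replicate number. The lines for Sobic.009G254700 and for another D14 gene, Sobic.003G206900, climb in all pairs, those of MAX2 slope down by 0.704 to 0.972 times, and those of Sobic.001G465100 are mixed.

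For both abundant genes, replicate 3 departed from its own group by a larger factor than the GR245DS mean did from the mock mean. It held 1.53 to 2.26 times the mean of replicates 1 and 2 for MAX2 and 1.59 to 2.14 times for Sobic.001G465100, across the 4 groups. For Sobic.009G254700 it held 0.240 to 0.614 times that mean. The same libraries had 1326 to 1976 CPM of the 22 green tissue genes against 521 to 831 CPM in the other libraries. Their xylem sum was 345 to 547 against 725 to 1830 CPM, their Casparian strip sum 3.94 to 7.81 against 8.87 to 31.3 CPM, and their sorgoleone sum 20.9 to 54.5 against 66.4 to 207 CPM. The 6 phloem genes overlapped, with 179 to 214 against 160 to 208 CPM. These sums moved with the replicate number, and their part in the gene values was not tested.

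Neither time comparison within a treatment nor the change of response from 3 h to 6 h gave a call for the 3 genes, in tests where 0% of genes passed with edgeR. At an unadjusted p under 0.05, 289 genes passed for the change of response, 344 between the mock times and 215 between the GR245DS times, and DESeq2 called 0, 5 and 0. For Sobic.009G254700 the response at 6 h exceeded that at 3 h by 0.96 on the log2 scale (95% interval -1.39 to 3.30, edgeR adjusted p = 1.0). The responses at 3 h and 6 h are therefore not shown to differ.

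**Figure D3:**
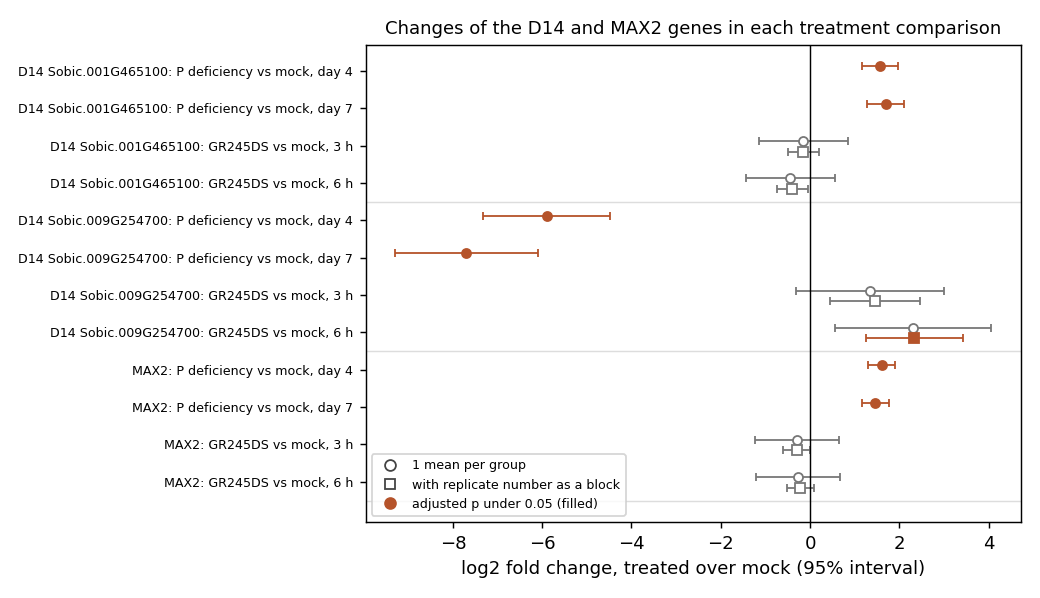
Log2 fold change of treated over mock with its 95% interval for the 3 genes in the 4 treatment comparisons; circles are fits with 1 mean per group, squares add the replicate number as a block in the GR245DS experiment, and filled brown marks have an adjusted p under 0.05. Sobic.001G465100 and MAX2 lie between 1.46 and 1.69 in the phosphorus experiment while Sobic.009G254700 lies at -5.90 and -7.70, and in the GR245DS experiment only the blocked 6 h value of Sobic.009G254700 is filled.

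The other receptor genes of the family split as well. D14L (Sobic.001G330000), described as the karrikin-type esterase, had the highest mean FPKM of the receptor genes in each group of the phosphorus experiment, at 101 ± 4.66 in day 4 mock and 79.1 ± 4.57 under labelled P deficiency. In CPM it fell from 153 ± 4.74 in mock to 115 ± 5.68 at day 4 (log2 fold change -0.41, edgeR adjusted p = 0.0110) and from 156 ± 21.0 to 109 ± 5.57 at day 7 (-0.51, edgeR adjusted p = 0.00281). In the GR245DS experiment it was at 43.2 to 52.7 CPM in the group means and passed in neither comparison. It was there below Sobic.001G465100 by FPKM, with 27.1 to 36.4 against 48.2 to 68.7 FPKM in the group means. In CPM, Sobic.001G465100 was above D14L under labelled P deficiency at day 4, at 408 ± 46.2 against 115 ± 5.68. The rank of D14L in that group therefore rests on the shorter length used for D14L in the FPKM, which was not checked against gene models.

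Among the genes described as D14, Sobic.003G206900 followed the weak D14 gene after GR245DS but not under labelled P deficiency. It rose at day 4 from 1.05 ± 0.308 to 3.85 ± 1.21 CPM (log2 fold change 1.86, edgeR adjusted p = 0.000514), and at day 7 was at 1.21 ± 0.290 and 2.02 ± 0.213 CPM (0.73, edgeR adjusted p = 0.0872). After GR245DS it was at 2.84, 5.64 and 1.60 times the mock of the same number at 3 h and at 2.52, 1.98 and 1.55 times at 6 h. With the block the 3 h change passed (log2 fold change 1.50, edgeR adjusted p = 0.0264) and the 6 h change did not (0.97, edgeR adjusted p = 0.162), and without it neither passed. Over the 12 libraries of that experiment, it was the gene with rank 2 of 22440 in likeness to Sobic.009G254700, or rank 4 with a pseudocount of 0.25 in place of 1, a fact noticed after its values were seen.

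The remaining D14 genes were nearly silent. Sobic.009G254600, numbered next to Sobic.009G254700, had 20 counts over 3 mock libraries and 3 under labelled P deficiency at day 4, and 33 against 0 at day 7. It fell at both days (edgeR adjusted p = 0.0463 and 0.00545), as Sobic.009G254700 did. Whether these alike genes share reads is uncertain, since the sources used here do not say how reads with several matches were counted or whether strand was used. Sobic.009G066000 had 6 counts in all, in 2 groups of the phosphorus experiment. Only for Sobic.001G465100 do the deposited annotation terms of the 5 D14 genes name strigolactone.

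**Figure D4:**
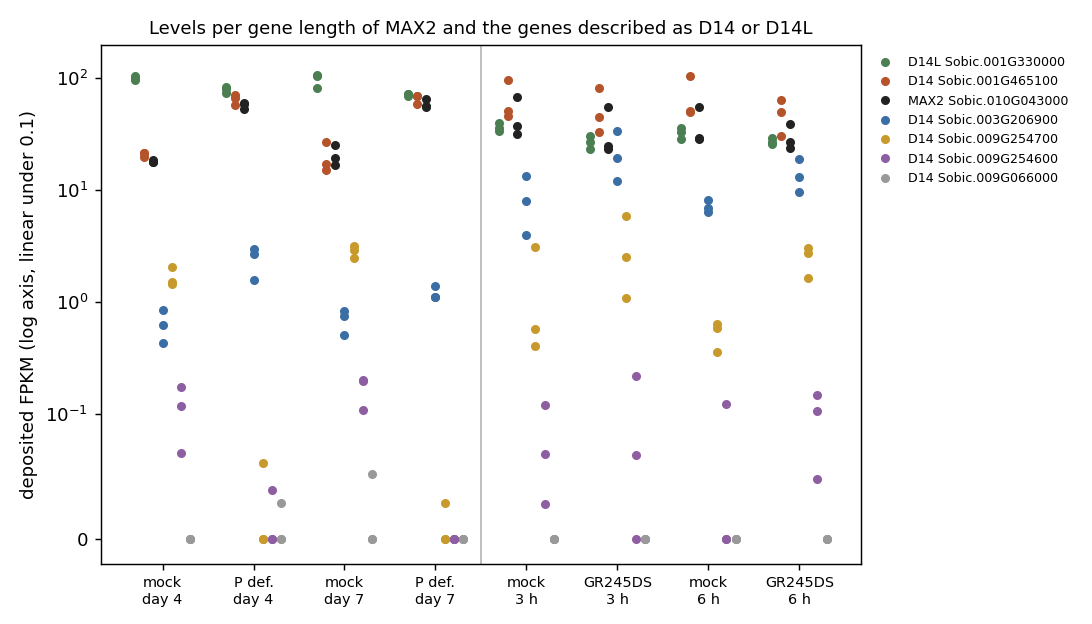
Deposited FPKM per library (log axis, linear under 0.1) of MAX2, D14L and the 5 genes described as D14 in the 8 groups; each point is a library and the vertical line parts the experiments. D14L, Sobic.001G465100 and MAX2 lie above all other D14 genes in every group of the phosphorus experiment, and Sobic.009G254700 drops to at most 0.0607 FPKM under labelled P deficiency.

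The rest of the pathway gives the setting of these changes, by lists of genes matched on their descriptions. For all counts of called genes, 20.3% of all tested genes rose and 18.4% fell at day 4, and 17.4% rose and 18.2% fell at day 7, or 38.6% and 35.6% in all. Of the 5 receptor genes tested, 2 rose and 3 fell at day 4, and 1 rose and 3 fell at day 7. Of 9 repressors of the D53 and SMAX1 type, 3 fell and none rose at each day, a share called near that of all genes, with list medians of 0.04 and -0.36 on the log2 scale beside 0.02 and -0.02 for all genes. The D53 gene Sobic.005G002400 fell from 85.5 ± 2.95 to 59.0 ± 3.29 CPM at day 4 (edgeR adjusted p = 0.000867) and SMAX1-LIKE 3 (Sobic.006G074900) from 5.54 ± 0.510 to 3.32 ± 0.600 CPM (edgeR adjusted p = 0.0163). The third was the SMAX1 gene Sobic.004G325000 at day 4 and the SMAX1-like gene Sobic.007G090900 at day 7. After GR245DS, repressors were the list with calls, with 4 of 9 higher at 3 h and 3 of 9 at 6 h, and list medians of 0.77 and 0.66. Of all tested genes 0.995% were higher at 3 h and 0.48% at 6 h. With the block, 5 and 4 repressors were higher, against 2.56% and 1.53% of all genes. The D53 gene Sobic.005G002400 rose 3.67-fold at 3 h (edgeR adjusted p = 0.0166) and 4.21-fold at 6 h, the D53 gene Sobic.008G002400 rose 3.03-fold and 3.25-fold, and SMAX1 (Sobic.004G325000) rose 3.33-fold and 3.15-fold. Sobic.007G090900, named after its values were seen, also rose at 3 h (log2 fold change 0.77, edgeR adjusted p = 0.0342).

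Core parts of the ubiquitin ligase that MAX2 joins were counted next. Of 18 core SCF genes (SKP1-like, cullin-1 and RING-box proteins) 12 were tested, and 6 rose and 1 fell at day 4 and 3 rose and 1 fell at day 7, beside 38.6% and 35.6% of all genes called, so the day 7 share was near the background. Their median log2 fold change was 0.31 at day 4 and 0.20 at day 7. A cullin-1 gene (Sobic.003G417900) went from 20.0 ± 1.59 to 33.0 ± 2.74 CPM at day 4 (log2 fold change 0.72, edgeR adjusted p = 0.000302), and RING-box protein 1a (Sobic.004G265700) from 21.8 ± 1.56 to 50.2 ± 17.3 CPM (1.20, edgeR adjusted p = 0.00186). The cullin-1 gene that fell (Sobic.002G141600) was weak, at 3.04 ± 0.666 CPM in mock and 0.377 ± 0.160 CPM under labelled P deficiency. Of the F-box proteins and receptors of other hormones, 7 of 10 were higher and none lower at day 4 and 6 of 10 were higher and none lower at day 7 (medians 0.65 and 0.54), where 20.3% and 17.4% of all genes were higher. Among them the gibberellin receptor GID1 (Sobic.009G134600) rose from 115 ± 9.15 to 237 ± 24.7 CPM at day 4 (1.04, edgeR adjusted p = 8.61e-06). The jasmonate co-receptor gene COI2 (Sobic.001G426900) rose by 0.74 and 1.05 on the log2 scale at the days (edgeR adjusted p = 0.000298 and 1.61e-05), and a TIR1-like auxin receptor gene (Sobic.006G056000) by 0.62 and 0.50 (0.00046 and 0.00224). None of the 10 other receptors and none of the 12 SCF genes passed after GR245DS.

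Of 6 genes of the TOPLESS family, co-repressors that act with D53, 1 rose and 1 fell at each day, a share near the 38.6% and 35.6% of all genes called. TPR2 gene Sobic.009G049500 fell from 47.8 ± 6.01 to 26.0 ± 2.98 CPM at day 4 (edgeR adjusted p = 0.000476), while its relative Sobic.009G049800 rose from 43.2 ± 4.62 to 63.5 ± 4.47 CPM (edgeR adjusted p = 0.00394). TPR3 (Sobic.001G433800) rose at day 7 from 332 ± 20.5 to 416 ± 17.3 CPM (edgeR adjusted p = 0.0344). Of the 3 branching regulators listed, SPL17 (Sobic.002G247800), a relative of the rice shoot regulator IPA1, fell from 4.63 ± 0.672 to 1.96 ± 1.05 CPM at day 4 (edgeR adjusted p = 0.0163). This is 1 gene at 1 day, and it does not stand for the list. After GR245DS 2 of the list were tested, and with the block 0 were higher and 0 lower at each time.

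Most synthesis genes tested fell under labelled P deficiency, in the libraries where MAX2 and the abundant D14 gene rose. These libraries also had the smaller SPX domain and phosphate transporter sums given above. An exchange of the labels would turn these directions round, and whether the labels are right was not tested. Of 10 synthesis genes tested, 6 fell and 2 rose at day 4 and 7 fell and 2 rose at day 7. Of all genes, 18.4% and 18.2% fell. The medians of the synthesis genes were -2.23 and -2.73 on the log2 scale. The weak D14 gene Sobic.009G254700, at -5.90 at day 4, lay among the most lowered of them, of which CCD8-B (Sobic.003G293600), the carlactone-forming enzyme, was at -6.88 (edgeR adjusted p = 1.47e-09). The carotene isomerase gene D27 (Sobic.005G168200) was at -5.08 and the MAX1-type oxidase Sobic.003G269500 at -4.62. The 2 that rose at both days, named after their values were seen, were CCD8-A (Sobic.005G002500, log2 fold change 1.73 at day 4) and another D27 gene (Sobic.009G030800, 0.65). After GR245DS none of 11 tested passed, and 1 passed at each time with the block, the MAX1-type gene Sobic.003G269600 (edgeR adjusted p = 0.0295 at 3 h and 0.0450 at 6 h).

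**Figure D5:**
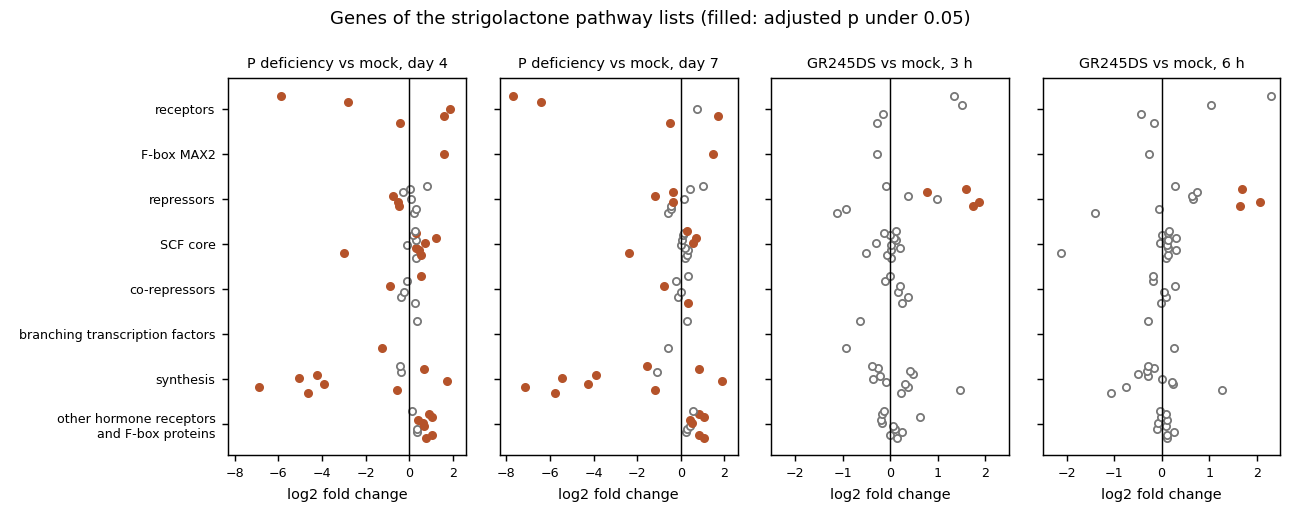
Log2 fold change of each tested gene of 8 pathway lists in the 4 treatment comparisons, filled brown where the adjusted p is under 0.05; the x axis covers a wider range in the phosphorus panels than in the GR245DS panels. Receptor genes lie on both sides of 0 in the phosphorus panels, and in the GR245DS panels the filled points are all repressors.

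Likeness of pattern was described as the root mean square difference of centred log2(CPM + 1) values over 12 libraries, so that 0 is an identical pattern. In the phosphorus experiment MAX2 and Sobic.001G465100 were 0.191 apart, which placed the D14 gene at rank 56 of 21188 for MAX2 and MAX2 at rank 10 for the D14 gene. The nearest genes to MAX2 were Sobic.004G082500, with no known function in its description, at 0.127, the subtilisin-like protease SBT1.3 (Sobic.006G185800) at 0.130 and a WD repeat gene (Sobic.010G056200), the thioredoxin-like CXXS1 (Sobic.006G226100) and a glycosyltransferase 83A1 gene (Sobic.001G084600) at up to 0.136. Nearest to Sobic.001G465100 were Sobic.002G038600, with no known function in its description, at 0.136, then the lectin receptor kinase IX.1 (Sobic.010G245100), the acyl-CoA ligase AAE7 (Sobic.001G397500), Auxin response factor 6 (Sobic.004G051900) and a dormancy-associated protein (Sobic.007G148200) at 0.161 to 0.182. Since most of the pattern is the step between the labels, many genes come close.

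Sobic.009G254700 stood 1.85 from MAX2 and 1.92 from Sobic.001G465100. Its 5 nearest genes were anthranilate synthase alpha 1 (Sobic.001G029300) at 0.149, tryptophan decarboxylase 2 (Sobic.002G120700) at 0.160, the transporter NPF4.3 (Sobic.008G081200), the uncharacterized Sobic.009G207600 and an aspartyl protease gene (Sobic.004G255000) at up to 0.187. With a pseudocount of 0.25 in place of 1, the 5 nearest shared 0 genes with these, against 3 of 5 for MAX2 and 4 of 5 for Sobic.001G465100. The names listed for the weak gene therefore rest on the pseudocount.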

How the data were processed

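RNA of sorghum roots was measured in 24 libraries. Per the file headers, the authors deposited raw counts and FPKM for every library, and for each comparison a log2 fold change and an adjusted p-value (FDR). Per the submitters' processing notes, the tools included DESeq2 1.22.1, featureCounts, fastp and HISAT2, whose roles are not stated. The sources used here do not give the genome build, strandedness or the handling of reads with several matches, so no positions or sequences are printed.

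The 12 libraries of an experiment were fitted together with 1 mean per group (edgeR 4.0.16, robust quasi-likelihood test, TMM scaling, filterByExpr, Benjamini-Hochberg over all tested genes, R 4.3.3). CPM were computed from the deposited counts with TMM. Ratios were tested with an exact permutation test (scipy 1.17.1). The edgeR test without a block was run on simulated independent libraries, with 1 spread for all genes and 1 comparison per experiment. The block and the permutation test were not simulated. The deposited FPKM served only to compare levels between genes. Counting intervals are exact binomial, at 95%, and cover counting error only.

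The 3 genes and the gene lists were chosen with earlier results of these data known. Of each pathway list, up to 3 called genes per experiment with the smallest adjusted p are named, and the 5 nearest genes in likeness where the gene was called. Genes had to have a description and a mean of at least 1 CPM (0.5 for the weak D14 gene) to enter the likeness.

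The replicate numbers of the GR245DS experiment were taken as a block, although the labels name no pairing. Deviations from the group means correlated at 0.231 to 0.792 in same-numbered pairs and at -0.656 to 0.389 in pairs of different number. At 3 h, GR245DS replicate 2 correlated at 0.231 with mock replicate 2 and at 0.265 with mock replicate 1. Alternatives were DESeq2 1.42.0, RLE size factors, library totals, the filter dropped or raised to 30 reads in 3 libraries, fits of the compared groups alone, the replicate block, leaving out each library and, chosen after seeing the data, leaving out replicate 3 of all GR245DS and mock groups of that experiment.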

Additional observations from a re-analysis of the deposited data

How the results depend on the processing

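The calls of the 3 genes between labelled P deficiency and mock held, with their direction, in all 78 alternatives run. In the GR245DS experiment, the replicate block brought Sobic.009G254700 past the threshold at 6 h (log2 fold change 2.33). The MAX2 change of response from 3 h to 6 h, 0.01, was -0.0070 with no filter, and its GR245DS difference between the times, -0.22, was 0.042 without replicate 3 and 0.039 with the block as well; none of these passed, and the cause was not tested. Leaving out 1 library at a time turned the sign of differences that were not called. For MAX2 the log2 values ran from -0.79 to 0.17 for GR245DS at 3 h, -0.51 to 0.14 at 6 h, -0.44 to 0.52 for the change of response, -0.46 to 0.29 between GR245DS times, -0.65 to 0.22 between mock times, and -0.25 to 0.095 for the change from day 4 to day 7 of the P response. For Sobic.001G465100 they ran, in that order, from -0.59 to 0.32, -0.70 to 0.026, -0.76 to 0.17, -0.43 to 0.27, -0.35 to 0.58 and -0.022 to 0.46, and from -0.35 to 0.12 between the mock days. For Sobic.009G254700 they ran from -0.46 to 1.76 for the change of response, -0.78 to 0.43 between GR245DS times, -1.75 to 0.089 between mock times, -4.54 to 1.94 for the change of the P response, and -3.73 to 2.74 between the days under labelled P deficiency, where 5 and 2 counts carry the values. The log2 ratio of MAX2 to Sobic.001G465100 ran from -0.072 to 0.12 at day 4, -0.27 to 0.0032 at 3 h and -0.045 to 0.076 over both GR245DS times.

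In the phosphorus experiment the numbers do not pair the libraries (same-number correlations of -0.503 to 0.200); the replicate block there changed no call of the 3 genes (Sobic.009G254700 -5.88 at day 4) and left 71 genes called for the change of response, against 117. DESeq2 called 430 there. Genes called for GR245DS numbered 250 at 3 h and 120 at 6 h, 604 and 335 with DESeq2, 777 and 509 with the replicate block, and 619 and 269 with the block and without replicate 3. With only the groups compared, 100 were called at 3 h. Without 1 library at a time the counts ran from 122 (mock replicate 2) to 304 at 3 h and from 52 (mock replicate 2) to 90 at 6 h, with 59 without mock replicate 3. Library totals alone moved the median of all genes to -0.15 at 3 h and -0.11 at 6 h. Between the mock days 338 genes were called (213 higher, 125 lower), 289 with library totals (149 and 140), 895 with DESeq2 and 176 with only the groups compared. Without 1 library they ran from 66 (day 4 replicate 3) and 82 (day 4 replicate 2) to 743 (day 7 replicate 1). Under labelled P deficiency 1103 were called between the days (548 higher, 555 lower), 1217 with library totals (469 and 748), 1869 with DESeq2 and 596 to 975 without 1 library. For the change of response, 58 to 180 were called without 1 library. Depth limits Sobic.009G254700, with 0 to 5 counts per library under labelled P deficiency.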
